A study of Mus musculus with 6 samples.

Results

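Myt1, Myt1l and St18 encode the MYT1 family, a small group of zinc finger transcription factors found mainly in neurons and their precursors. The 3 genes, of 18193 with a single-gene probe set, were read out by 9 of the 45037 probe sets on the array: 2 for Myt1, 5 for Myt1l and 2 for St18. A probe set is a group of short probes on the array that is summarised as 1 intensity. Members were all probe sets to which the platform annotation gives exactly 1 gene symbol and that symbol is one of the 3. The family was selected on measured values, namely because Myt1l had stood out on the higher side of the mutant against wild-type comparison of these same arrays. The mutant minus wild-type differences below are therefore a description. Counts of members that pass a threshold in the fit across the array are given, but nothing is read from them.

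Olfactory epithelium, the neuron-bearing lining of the nasal cavity, was taken from 3 mutant and 3 wild-type mouse pups aged 1 day, all of a mixed C57Black6/J and 129SvJ background. RNA of each pup was amplified, labelled with biotin and hybridised to an array of its own. The labels call the first group mutant and name no allele, and the study looked for genes controlled by KLF7, a neuronal member of the Krüppel-like factors, going by its title. The labels call the arrays of a group biological replicates.

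MYT1 family proteins carry clusters of an unusual zinc finger, in which cysteine and histidine residues hold the zinc, and bind DNA at sites with the core AAGTT. They act largely as repressors, by recruiting SIN3 scaffolds, histone deacetylases and the histone demethylase KDM1A. In frog embryos Myt1 promotes the formation of neurons downstream of proneural factors and counters lateral inhibition by Notch, and in mouse cells Myt1l represses Notch pathway and other non-neuronal genes and is one of the factors used to turn fibroblasts into neurons. St18 has been studied in neuronal precursors and in pancreatic islets.

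The sequence around the annotated starts is shown first, because the study looked for genes that a DNA-binding factor controls. RefSeq promoter windows of 300 bases (250 before and 50 after a start, GRCm38.p6) were at hand for 2 of the 3 genes, with 3 windows for Myt1 and 5 for Myt1l. The most upstream window of each gene is printed, and for Myt1l also the window with the most motif matches. Capitals mark matches on either strand to AAGTT, the core bound by the family itself, which reads AACTT on the other strand. They also mark CACCC, which reads GGGTG on the other strand, and GGGCGG, which reads CCGCCC there, short forms of the boxes that Krüppel-like factors bind. In the windows printed, no match overlapped one of another motif.
Myt1, chr2:181763082-181763381, plus strand: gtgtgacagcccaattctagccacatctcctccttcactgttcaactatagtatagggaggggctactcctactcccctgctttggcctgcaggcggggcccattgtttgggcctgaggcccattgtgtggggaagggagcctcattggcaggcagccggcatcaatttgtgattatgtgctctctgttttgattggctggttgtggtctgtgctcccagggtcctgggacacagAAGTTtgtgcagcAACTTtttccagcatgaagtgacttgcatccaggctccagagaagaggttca
Myt1l, chr12:29528134-29528433, plus strand: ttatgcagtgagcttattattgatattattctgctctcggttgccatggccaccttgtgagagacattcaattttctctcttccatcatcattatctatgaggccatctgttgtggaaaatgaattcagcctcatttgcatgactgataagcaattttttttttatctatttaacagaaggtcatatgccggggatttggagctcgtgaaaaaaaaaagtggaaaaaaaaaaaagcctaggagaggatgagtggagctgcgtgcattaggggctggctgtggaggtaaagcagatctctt
Myt1l, chr12:29534972-29535271, plus strand: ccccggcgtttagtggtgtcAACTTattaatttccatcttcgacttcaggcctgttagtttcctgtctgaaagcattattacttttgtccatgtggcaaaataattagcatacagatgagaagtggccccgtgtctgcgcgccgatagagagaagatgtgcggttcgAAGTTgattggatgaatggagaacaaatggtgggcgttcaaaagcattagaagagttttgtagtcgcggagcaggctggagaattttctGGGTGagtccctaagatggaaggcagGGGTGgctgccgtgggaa

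AAGTT was found in 3 of the 3 Myt1 windows and 2 of the 5 Myt1l windows, against 39.3% of the 32841 windows of that length in the table. CACCC was found in 1 Myt1 window and 2 Myt1l windows, against 57.5% of all windows. GGGCGG was found in 0 Myt1 windows and 1 Myt1l window, against 35.7% of all windows. The 3 windows printed had a GC content of 53.7%, 40% and 47.7%, beside a median of 52.7% over all windows. Windows of 1 gene share its locus, a match is only a run of letters, and which start olfactory epithelium uses was not measured.

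Total deposited intensity ran from 11056397 to 14439788 on mutant arrays and from 10064207 to 13320971 on wild-type arrays. Both arrays numbered 3 stood apart from the others on the first principal component, which carried 47% of the variance: they lay at 115.8 (mutant) and 170 (wild type), and the other 4 arrays between -96.6 and -42.7. Each member is therefore also given within arrays of the same number. No 2 arrays shared more than 0.027% of identical values above 0. All 4 Klf7 probe sets were lower in mutant than in wild-type arrays with no overlap, with log2 differences of -3.06 to -2.15 (limma, adjusted p = 0.000759 to 0.0284 over these 4). The exact two-sided permutation p was 0.1 for each, the smallest that 3 arrays against 3 can give. The count of called Klf7 probe sets became 2 without mutant array 1, mutant array 3, wild-type array 1 or wild-type array 2.

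Across the table, limma called 0 of 44073 probe sets at an adjusted p under 0.05, a background of 0%, and 0 of the 9 family probe sets. At an unadjusted p under 0.05 the table held 288 (0.653%), of which 141 were higher in mutant (0.32%) and 147 lower (0.334%), and the family 1, which was higher. The values of mutant arrays all lay above those of wild-type arrays for 2 of the 9 family probe sets, both of Myt1l, beside 1.22% of all probe sets. They all lay below for 0 of the 9, beside 1.54% of all probe sets. The contrast was used to pick the family, so nothing is read from these shares.

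Among the 9 probe sets, 6 had a higher mean in mutant and 3 a lower one, with differences from -0.22 to 1.16 and a median of 0.20. Over all 44073 probe sets 48.3% had a higher mean in mutant, and the median difference was -0.01. All 9 were above the floor on at least 1 array and so entered the fit. For 7 the mean lay above the level below which probe sets are counted as dim (4.93 on the log2 scale), and the others were 1439365_at of Myt1 and 1436793_at of St18. The plot by array shows all 9.

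**Figure D1:**
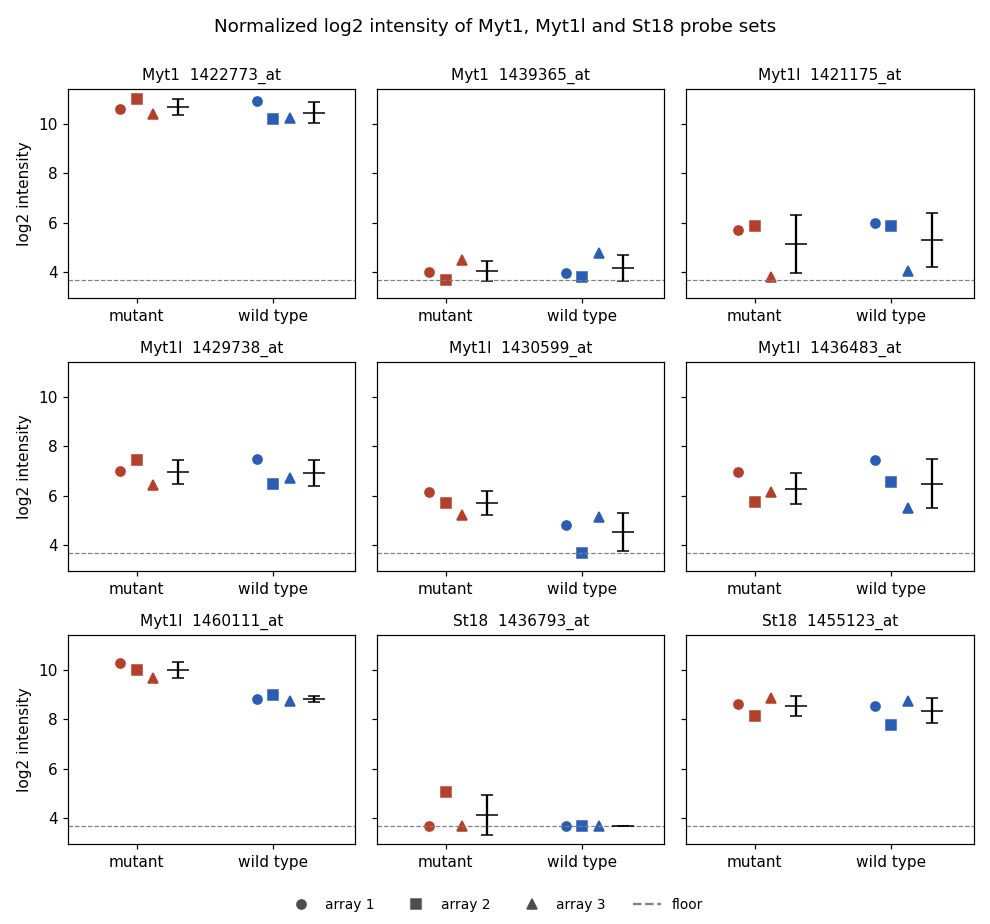
Normalized log2 intensity of each Myt1, Myt1l and St18 probe set on the 3 mutant (red) and 3 wild-type (blue) arrays, with marker shape giving the array number. Black bars are the group mean and SD, and the dashed line is the floor at 3.65; for 1460111_at the mutant arrays (9.69 to 10.30) lie above the wild-type arrays (8.75 to 8.98), whereas for 1422773_at and 1455123_at the groups overlap.

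Myt1 is the founding member of the family and is known from neural progenitors, oligodendrocyte precursors and endocrine cells of the pancreas. Its probe set 1422773_at, tied by the annotation to a RefSeq transcript, read 10.62, 11.04 and 10.42 on mutant arrays 1 to 3, against 10.96, 10.21 and 10.24 on wild-type arrays 1 to 3 (normalized log2 intensity). Mutant array 2 was the highest and wild-type array 2 the lowest, and the groups overlapped. The means were 10.69 ± 0.32 in mutant and 10.47 ± 0.42 in wild type (SD, n = 3 each), a difference of 0.23 on the log2 scale (SE 0.28), or 1.17-fold. Within arrays of the same number the difference was -0.34, 0.83 and 0.19 for numbers 1, 2 and 3, so its sign was not shared by the pairs. It was 0.05 without mutant array 2.

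The other Myt1 probe set, 1439365_at, lay near the floor. It read 3.98, 3.65 and 4.47 on mutant arrays, against 3.96, 3.78 and 4.77 on wild-type arrays, with mutant array 2 at the floor itself. In both groups array 3 was the highest, and the groups overlapped. The difference was -0.13 (SE 0.38) and became 0.16 without wild-type array 3 and 0.06 without mutant array 2.

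Myt1l, known as a factor of neurons that have left the cell cycle, was read by 5 probe sets that did not move alike. Probe sets 1460111_at and 1430599_at had a difference of 1.16 each, whereas 1421175_at, 1429738_at and 1436483_at had differences between -0.22 and 0.06. The mean over the 5 differences was 0.40 and their median 0.06. The annotation ties 1421175_at to a RefSeq transcript, 1429738_at to a full-length cDNA, and the other 3 to expressed sequence tags. Which exons or transcript ends each probe set reads was not analysed here.

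Probe set 1460111_at is the one on which Myt1l had stood out. Its deposited intensities were 1367, 1187 and 701 on mutant arrays 1 to 3, against 469, 548 and 342 on wild-type arrays 1 to 3. After normalization it read 10.30, 10.03 and 9.69 on mutant arrays, against 8.83, 8.98 and 8.75 on wild-type arrays (log2). The groups did not overlap on either scale, and array 3 was the lowest of its group in both genotypes. The means were 10.01 ± 0.31 in mutant and 8.85 ± 0.12 in wild type (SD, n = 3 each), a difference of 1.16 (SE 0.27), or 2.23-fold. Within arrays of the same number the difference was 1.48, 1.05 and 0.94, and it lay between 1.00 and 1.31 when any 1 array was left out. Since the groups do not overlap, a positive sign in every pair follows and adds nothing. The family was picked on these values, so the ranges are a description only.

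Probe set 1430599_at had a difference of the same size with a wider spread. Its deposited intensities were 60.3, 66.5 and 37.9 on mutant arrays, against 21.9, 10.4 and 38.9 on wild-type arrays. On that scale the groups overlapped, since mutant array 3 lay below wild-type array 3. After normalization it read 6.16, 5.70 and 5.21 on mutant arrays, against 4.79, 3.65 and 5.14 on wild-type arrays, where the groups were set apart by the small gap between both arrays numbered 3. Wild-type array 2 was at the floor. The difference was 1.16 (SE 0.78), and within arrays of the same number it was 1.38, 2.05 and 0.07. It was 0.73 without wild-type array 2, and 1.73 on the 4 arrays numbered 1 and 2. The wild-type mean of 4.53 lay under the dim level, so no fold is given, and the difference moved with the floor: it was 1.32 with the floor at the 10th percentile, 0.93 at the 30th, and 0.83 on the scale of log2(value + 16).

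The other 3 Myt1l probe sets had overlapping groups. Probe set 1421175_at read 5.71, 5.88 and 3.77 on mutant arrays, against 6.0, 5.87 and 4.04 on wild-type arrays (log2). Array 3 was the low one in both genotypes, so the spread within groups (SD 1.17 in mutant and 1.10 in wild type) was larger than the difference of -0.18 (SE 0.93). Leaving out 1 array moved that difference from -0.81 (without wild-type array 3) to 0.49 (without mutant array 3).

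Probe set 1429738_at read 7.02, 7.43 and 6.43 on mutant arrays, against 7.5, 6.49 and 6.72 on wild-type arrays. The highest wild-type array lay above all mutant arrays, and the difference was 0.06 (SE 0.56). Probe set 1436483_at read 6.98, 5.73 and 6.13 on mutant arrays, against 7.45, 6.56 and 5.48 on wild-type arrays. Its difference was -0.22 (SE 0.74), with -0.47, -0.83 and 0.65 within arrays numbered 1, 2 and 3. For both, array 1 or 2 was the highest in each group, and no genotype was set apart. Within arrays numbered 1, 2 and 3 the difference was -0.48, 0.94 and -0.28 for 1429738_at, and -0.29, 0.02 and -0.26 for 1421175_at, so none of these 3 probe sets had 1 sign in all pairs.

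**Figure D2:**
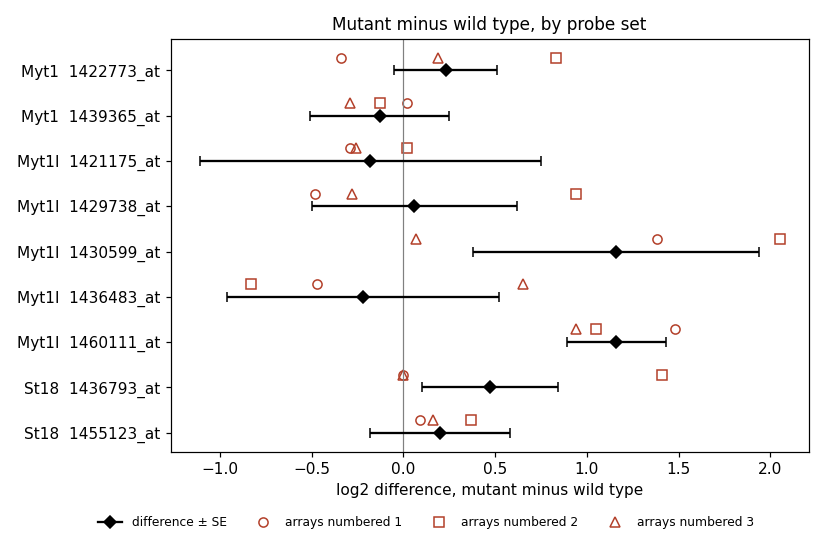
Log2 difference, mutant minus wild type, of each probe set: black diamonds with bars are the difference and its SE from the fit over the whole table, and open red markers are the differences within arrays numbered 1, 2 and 3. Only for 1460111_at and 1430599_at of Myt1l, and 1455123_at of St18, do all 3 numbers lie above 0, the last with differences of 0.09, 0.37 and 0.16.

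St18 (also called NZF-3 or Myt3) lies on chromosome 1, as does Klf7, whereas Myt1 lies on chromosome 2 and Myt1l on chromosome 12. Its probe set 1455123_at read 8.63, 8.14 and 8.89 on mutant arrays, against 8.55, 7.77 and 8.74 on wild-type arrays (log2). In both genotypes array 3 was the highest and array 2 the lowest, and the groups overlapped. The means were 8.55 ± 0.39 in mutant and 8.35 ± 0.51 in wild type (SD, n = 3 each), a difference of 0.20 (SE 0.38), or 1.15-fold. Within arrays numbered 1, 2 and 3 the difference was 0.09, 0.37 and 0.16, positive in 3 of 3 pairs. It turned to -0.09 without wild-type array 2, the lowest of its group.

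The other St18 probe set, 1436793_at, had a deposited intensity of 41.6 on mutant array 2 and was listed at 0 on the other 5 arrays. Its difference of 0.47 (SE 0.37) rests on that array alone, and no fold is given. Without mutant array 2 no array lies above the floor.

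In bulk tissue, fewer cells of a type and less RNA per cell cannot be told apart, so these values do not say whether a gene's level per neuron differed. Mature olfactory neuron markers had a median difference of -0.88, with 8 of 10 lower in mutant and 0 called by limma. At an unadjusted p under 0.05 there were 6 of the 10, beside 0.653% of all probe sets. Per array, their median log2 level was 8.49 to 9.22 in mutant and 9.11 to 9.48 in wild type, which overlap, whereas their summed normalized intensity was 4201 to 5725 in mutant and 7260 to 9013 in wild type, which do not. Immature neuron markers had a median of -0.17, with 10 of 13 lower and 0 called (1 at an unadjusted p under 0.05). Their median log2 level per array was 9.49 to 9.78 in mutant and 9.93 to 10.22 in wild type, and their summed intensity 20362 to 21337 in mutant and 21518 to 24583 in wild type, with no overlap in either. Myt1 1422773_at, Myt1l 1460111_at and St18 1455123_at, the brightest probe set of each gene, had differences of 0.23, 1.16 and 0.20 on the same arrays. The family was picked on the values of 1460111_at. Of the other Myt1l probe sets, 1430599_at had a difference of 1.16. Those of 1421175_at, 1429738_at and 1436483_at were -0.18, 0.06 and -0.22. A difference between these values and the marker lists was not tested.

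Myt1l and Myt1 are also expressed in brain, which lies next to this tissue at dissection, and Myt1 in glia. Of the central nervous system markers, 8 of 12 were higher in mutant, with a median of 0.17 (-0.04 with the dim filter, 0.02 without wild-type array 3) and 0 called (0 at an unadjusted p under 0.05). Their median log2 level per array was 5.24 to 5.60 in mutant and 4.74 to 5.36 in wild type. Neurod6, a factor of cortical neurons, was at the floor on 4 of the 6 arrays and averaged 3.71 ± 0.09 in mutant and 3.65 ± 0 in wild type (SD, n = 3 each). The glutamate transporter Slc17a7 of forebrain neurons averaged 4.74 ± 0.45 in mutant and 4.27 ± 0.56 in wild type (SD, n = 3 each). Aqp4, the brightest of the list, averaged 11.23 in mutant and 11.14 in wild type. The next in brightness had a lower mean in mutant. Reln, a secreted protein of some neurons, averaged 7.72 in mutant and 7.97 in wild type. Slc1a2, a glial glutamate transporter, averaged 6.53 in mutant and 6.75 in wild type. Gad2, an enzyme of GABA synthesis, averaged 6.37 in mutant and 6.53 in wild type. Dimmer than these, Dlx2 (5.68 in mutant, 4.95 in wild type) and Eomes (5.56 in mutant, 4.70 in wild type) had a higher mean in mutant. For all of these genes the groups overlapped. The summed normalized intensity of the list was 2823 to 3745 in mutant and 2542 to 3870 in wild type. Aqp4, which nasal epithelium also expresses, made up most of that sum on each array, so the sum mainly follows this gene. The part of brain tissue in the Myt1l values was not tested.

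Glial markers had 5 of 7 higher in mutant, with a median of 0.18, and a summed intensity of 2749 to 3021 in mutant and 2010 to 3224 in wild type. That median was -0.11 without wild-type array 3 and 0.47 without mutant array 2. Neuroendocrine markers had 4 of 5 lower, with a median of -0.37, and a summed intensity of 1434 to 2082 in mutant and 2276 to 2543 in wild type. Squamous epithelium, which a nasal dissection can carry along, ranged widely in both genotypes, with a summed intensity of 174 to 2169 in mutant and 297 to 5104 in wild type. Of its 8 genes 2 were higher in mutant, with a median of -0.13 whose sign rests on single arrays: it ran from -0.99 (without mutant array 1) to 1.17 (without wild-type array 2) when any 1 array was left out. Among cells of the epithelium itself, progenitor markers had 1 of 5 higher (median -0.20), sustentacular and gland markers 7 of 8 (median 0.30, but -0.06 without wild-type array 3) and horizontal basal cell markers 4 of 4 (median 0.43, but 0.08 without wild-type array 3 and 0.91 without wild-type array 2). Limma called 0 members of these 6 lists. At an unadjusted p under 0.05 there was 1, the neuroendocrine granule protein Scg3, beside 0.653% of all probe sets. The part of these cells in the Myt1l, Myt1 and St18 values was not tested.

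Corepressor partners, the proteins through which the family represses, had mean differences that were small beside their SEs of 0.25 to 0.71. A difference within those SEs would not be seen here, and one larger than them could be missed as well. Sin3a had the widest SE, with wild-type arrays from 5.36 to 7.52. Of the 6 genes, 3 were higher and 3 lower in mutant, with differences from -0.07 to 0.11, a median of 0.01 and 0 called by limma (0 at an unadjusted p under 0.05). Sin3b, the SIN3 scaffold that binds Myt1l, averaged 10.04 ± 0.25 in mutant and 10.08 ± 0.25 in wild type (SD, n = 3 each). The deacetylases Hdac1 and Hdac2 differed by 0.02 (SE 0.34) and -0.07 (SE 0.40). The demethylase Kdm1a differed by 0.07 (SE 0.27), and its partner Rcor1 averaged 9.49 ± 0.32 in mutant and 9.50 ± 0.32 in wild type (SD, n = 3 each).

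The Notch pathway, through which neighbouring cells hold each other back from becoming neurons, had 6 of 14 genes higher and 8 lower in mutant. The median was -0.07, with 0 called by limma. At an unadjusted p under 0.05 there was 1, Notch1, beside 0.653% of all probe sets. The receptor Notch1 read 10.44, 10.54 and 10.64 on mutant arrays, against 10.24, 10.02 and 9.59 on wild-type arrays, a difference of 0.59 (SE 0.24) with no overlap. Rbpj, the DNA-binding partner of activated Notch, averaged 10.23 ± 0.03 in mutant and 9.85 ± 0.46 in wild type (SD, n = 3 each). Its lowest mutant array and its highest wild-type array both read 10.19 to 2 decimals, so the groups all but touched. Groups set apart with mutant higher made up 1.22% of all probe sets. The receptors Notch2 and Notch3 differed by 0.02 (SE 0.18) and -0.08 (SE 0.23).

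Hes1, a Notch-induced repressor that Myt1l is known to repress, averaged 5.69 ± 0.48 in mutant and 5.93 ± 0.45 in wild type (SD, n = 3 each). The difference of -0.24 (SE 0.76) was within the spread of the arrays. Hes5, a related repressor, differed by -0.23 (SE 0.88), and Hey1 by 0.04 (SE 0.22). The highest difference of the list was that of Hey2, a repressor related to Hey1, at 0.64 (SE 0.52), with overlapping groups. The ligand Jag1 differed by -0.14 (SE 0.29). The ligand Dll1 was at the floor on 4 arrays and Dll3 on 5, so their differences carry little.

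Non-neuronal regulators had 6 of 7 higher in mutant, with a median of 0.07 and 0 called by limma. Rest, the repressor of neuronal genes outside neurons, averaged 10.88 ± 0.24 in mutant and 10.82 ± 0.23 in wild type (SD, n = 3 each). Id3, an inhibitor of proneural factors, differed by 0.64 (SE 0.45), with wild-type array 3 the lowest at 7.51 and the groups overlapping. Neurogenic factors had 5 of 8 higher in mutant, with a median of 0.23 and 0 called. In neither list did a member have an unadjusted p under 0.05. Neurod1, which acts late in the making of olfactory neurons, averaged 11.15 ± 0.26 in mutant and 10.83 ± 0.32 in wild type (SD, n = 3 each). Pou3f2, used together with Myt1l to turn fibroblasts into neurons, differed by 1.32 (SE 1.02). It was at the floor on mutant array 1 and wild-type array 3, and the groups overlapped.

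**Figure D3:**
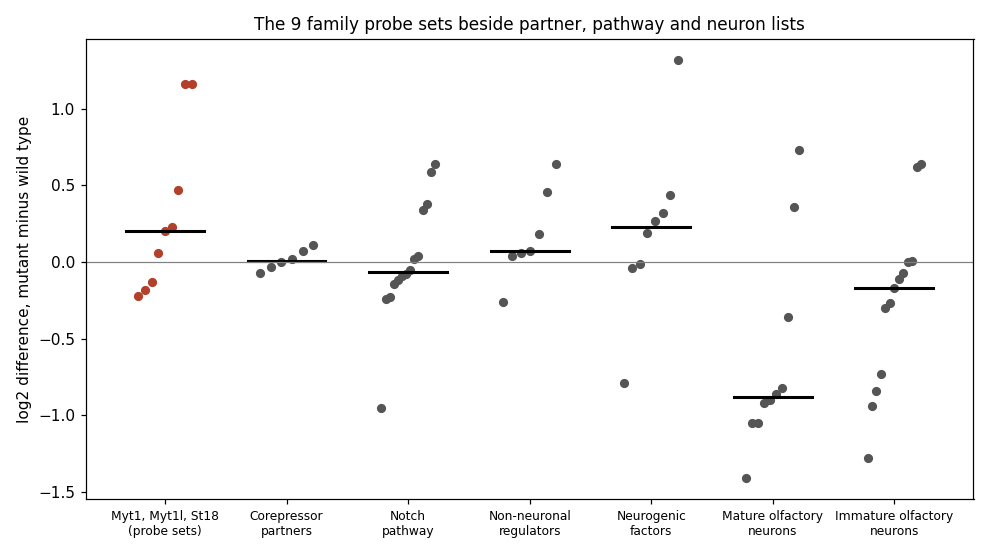
Log2 difference, mutant minus wild type, of the 9 family probe sets (red) and of the genes in 6 lists (grey, brightest probe set of each gene), with the median of each as a black bar. The medians were 0.20 for the family, 0.01 for corepressor partners, -0.07 for the Notch pathway, 0.07 for non-neuronal regulators, 0.23 for neurogenic factors, -0.88 for mature and -0.17 for immature olfactory neurons.

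The genes whose levels over the 6 arrays were most like those of each member's brightest probe set were sought among 12603 genes above the dim level, by Pearson's r of normalized log2 values. These correlations describe 6 arrays that share genotype groups and array numbers, and carry no test. For Myt1 1422773_at they were Osbp, an oxysterol-binding protein (r = 0.994), Wdr20 (0.991) and Lpgat1, an acyltransferase of lipid synthesis (0.986), each highest on mutant array 2 and wild-type array 1. For St18 1455123_at they were Bend4 (r = 0.988), Fsd1 (0.986) and Lrriq3 (0.979), each lowest on wild-type array 2.

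For Myt1l 1460111_at they were Orm1, a secreted glycoprotein of the acute phase (r = 0.968), Flad1, the enzyme that makes FAD (0.94), and Rdh10, a retinol dehydrogenase of retinoic acid synthesis (0.937). Their mutant minus wild-type differences were 0.52 (SE 0.40), 0.29 (SE 0.54) and 0.39 (SE 0.23), smaller than the 1.16 of Myt1l. Rdh10 read 10.24, 10.16 and 9.90 on mutant arrays, against 9.83, 9.68 and 9.63 on wild-type arrays. Since 1460111_at sets the genotypes apart, genes that do so are favoured by this measure.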

How the data were processed

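The authors deposited 1 linear intensity per probe set and array; the sources used here do not give how probes were condensed, background corrected or scaled. Array quartiles differed by 0.54 to 0.69 on the log2 scale, so the arrays were quantile normalized, with values under the 20th percentile set to it (an intensity of 12.56, 3.65 on the log2 scale, called the floor) and log2 transformed; differences near the floor are understated. Probe sets above the floor on at least 1 array (44073 of 45037) were fitted with limma 3.58.1 in R 4.3.3 (lmFit, eBayes with intensity trend, two-sided, Benjamini-Hochberg adjustment over all of them, threshold 0.05). The code was run on simulated data with independent noise on each array and planted differences larger than those of the members. Such data lack the variation that these arrays share, so that run does not show how the fit performs here. The platform annotation gave 34945 probe sets 1 symbol, 932 several and 9160 none; lists use the brightest single-symbol probe set of a gene. The number of arrays limits the precision. Members and all 13 lists were chosen with earlier results of these data known; the lists are gene sets from background knowledge of the family and of cell types, and some listed genes were not analysed here. Named are all members, Klf7, members of these lists and the 3 genes most like each member, clone names skipped.

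Arrays of the same number deviated together from their group means (correlation 0.51, 0.41 and 0.59 across probe sets for numbers 1, 2 and 3, taken from the titles). Deviations within a group of 3 arrays cancel out, and both arrays numbered 3 stand apart, so part of these correlations is built in. Arrays of different numbers were not compared in this way, so the correlations do not show that same-numbered arrays belong together. Differences within same-numbered arrays are given as well, and are called pairs for short. The main fit left the number out, and every SE and limma p given above comes from that unpaired fit. A fit with the number as a block was an alternative. Other alternatives changed the filter, normalization, floor, transform, variance model, array weights, probe set choice and the arrays used.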

Additional observations from a re-analysis of the deposited data

How the results depend on the processing

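In the fit that adds the replicate number as a block, limma called 0 probe sets, as under each of the 18 alternatives; at an unadjusted p under 0.05 the block gave 801 in place of 288. That count was 116 with the 40% dim filter, 482 with no filter, 628 with array weights, 138 with 1 probe set per gene and 534 without wild-type array 2. The block left the differences of the members as they were and changed no call, but it lowered some of their SEs, from 0.93 to 0.48 for 1421175_at. The count of family probe sets with mutant arrays all above wild-type arrays was 1 with no normalization (1460111_at remained) and 2 to 3 when any 1 array was left out. Klf7 probe sets called lower numbered 2 to 4 when any 1 array was left out. The difference of 1460111_at lay between 1.00 and 1.31 under its 17 alternatives, that of 1430599_at between 0.73 and 1.73, and that of 1422773_at between 0.05 and 0.47. The differences of 1439365_at, 1421175_at, 1429738_at, 1436483_at and 1455123_at had the opposite sign under 3, 3, 4, 2 and 1 alternatives. The medians of the corepressor, Notch, non-neuronal and neurogenic lists ran from -0.08 to 0.12, -0.16 to 0.11, -0.07 to 0.19 and -0.10 to 0.32, so none of these 4 has a settled sign. The central nervous system median ran from -0.04 to 0.38 and that of mature neurons from -0.97 to -0.72. The cause of these shifts was not tested. Array 3 of each genotype stands apart, and 3 arrays a group limit what a fit over 44073 probe sets can call.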
